A study of Homo sapiens with 8 samples.

Results

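The 10 genes described here belong to the transforming growth factor-beta (TGF-beta) and activin branch of signaling and were followed across the 4 treatment groups. They are the ligand genes TGFB1, TGFB2, TGFB3 and INHBA, the receptor genes TGFBR1, TGFBR2 and TGFBR3, the signal transducer gene SMAD3, and the target genes SKIL and TGFBI. They were chosen by symbol, and these 10 are among the 23228 genes listed in each library. The samples were BT-549, an established TNBC cell line grown in RPMI medium with serum, and the transcriptome was measured by RNA-seq in 8 libraries, 2 per group. Cells received vehicle (DMSO), EC359 at 100 nM, vorinostat at 10 µM, or EC359 and vorinostat together at those doses (the combination), for 24 h. EC359 is described by the study as an inhibitor of the leukemia inhibitory factor receptor (LIFR), and vorinostat is a histone deacetylase inhibitor (HDACi). A single line, dose and time point were used for each drug. The question behind the design is what EC359 adds to the effect of the HDACi.

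TGF-beta ligands and activins are secreted dimers that bind a type II receptor, which then activates a type I receptor kinase. The activated receptor phosphorylates SMAD2 and SMAD3, which enter the nucleus with SMAD4 and regulate target genes, among them genes whose products restrain the pathway. In breast cancer cells the pathway is known both for growth arrest and for mesenchymal and invasive features.

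Between 19069450 and 24759041 reads fell on genes in a library. Mesenchymal markers were high, with VIM between 2056 and 9443 CPM (read counts relative to the TMM-scaled library size) and ZEB1 between 43.2 and 208, while CDH2 lay between 22.7 and 39.5 CPM. ESR1 reached at most 1.02 CPM, PGR 0.0511 CPM, CDH1 2.21 CPM and EPCAM 4.27 CPM, and ERBB2 ranged from 12 to 102 CPM. The leukocyte, endothelial and hepatocyte genes PTPRC, PECAM1 and ALB reached at most 0.708, 0.204 and 2.93 CPM. The EC359 pair of libraries differed more than any other pair, with an SD over genes of the log2 difference of 0.563 against 0.312 to 0.448 in the other groups. Values of the members other than TGFB3 are given below for each library.

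The 250 bases before the transcription start are shown for INHBA, TGFBR3 and SMAD3, the 3 members called in most comparisons, so that the regulatory sequence can be read beside the values. The sequences come from the RefSeq promoter set (GRCh38.p14), were matched to GRCh37, the build of the counts, at a single place each, and are written 5′ to 3′ on the gene's strand. Capitals mark any match to an AP-1 element (TGANTCA), a cyclic AMP response element (TGACGTCA), a STAT element (TTCNNNGAA), a TATA box (TATAAA) or a SMAD element (CAGACA), searched on both strands, and none of these letters contains another.
INHBA, chr7:41742689-41742938, minus strand: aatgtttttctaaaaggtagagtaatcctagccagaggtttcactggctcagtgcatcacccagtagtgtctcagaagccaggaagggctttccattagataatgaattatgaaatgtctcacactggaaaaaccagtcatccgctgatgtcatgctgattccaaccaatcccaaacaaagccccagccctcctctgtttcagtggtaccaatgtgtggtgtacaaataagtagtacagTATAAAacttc
TGFBR3, chr1:92351709-92351958, minus strand: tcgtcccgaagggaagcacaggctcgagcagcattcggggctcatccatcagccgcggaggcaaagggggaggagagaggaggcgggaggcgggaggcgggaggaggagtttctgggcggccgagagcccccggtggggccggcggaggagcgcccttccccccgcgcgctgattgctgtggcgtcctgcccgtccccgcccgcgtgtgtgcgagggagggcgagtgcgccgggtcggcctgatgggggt
SMAD3, chr15:67357690-67357939, plus strand: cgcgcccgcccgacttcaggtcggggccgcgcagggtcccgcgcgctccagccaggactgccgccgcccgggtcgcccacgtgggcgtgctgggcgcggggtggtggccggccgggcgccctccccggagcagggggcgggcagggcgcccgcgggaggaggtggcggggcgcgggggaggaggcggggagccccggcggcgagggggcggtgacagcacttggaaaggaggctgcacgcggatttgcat
Each window lies inside the annotated span of its gene and touches no annotated exon. SMAD3 has 5 RefSeq start sites in this set, and the one shown is the only one whose window is free of exons. The INHBA window holds the TATA letters, found in 10.7% of the 35116 promoter windows. They begin at base -11 from the start, beside -29 in TGFB2 and -30 in TGFB3. The INHBA window has 42.8% G and C and 1 CpG. The TGFBR3 and SMAD3 windows have 73.6% and 80.8% G and C, with 28 and 36 CpG, and hold none of the searched letters. The median G and C content of all windows was 58%. The 10 members have 23 windows in the set, 8 of them of TGFBR1 and 5 of SMAD3, and a member was counted when any of its windows held the letters, whereas the shares are per window. Over all start sites, the TATA letters occurred in 3 members (INHBA, TGFB2 and TGFB3), the AP-1 letters occurred in 1 member (SMAD3) and in 6.57% of all windows, the STAT letters in 1 member (SMAD3) and 6.57%, the cyclic AMP response letters in 1 member (SKIL) and 1.65%, and the SMAD letters in 3 members (SMAD3, TGFB2 and TGFBR1) and 13.6%. These are matches of letters in a short window and not measured binding.

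All 10 members passed the filter on low counts, as did 13694 genes in all. A gene was called when the quasi-likelihood test of edgeR, adjusted over all tested genes by the Benjamini-Hochberg method, gave an adjusted p under 0.01 and the absolute log2 fold change was over 1, the thresholds of the study. The interaction asks whether the EC359 effect differed with and without vorinostat, and was called on the adjusted p alone. Comparisons against vehicle share the vehicle libraries, and those against a single drug share the combination libraries. With EC359 alone, 1 of 10 members was called higher and 0 lower, where 3.67% of all tested genes were called, 1.94% higher and 1.72% lower. With vorinostat alone 1 member was called higher and 1 lower, where 30.1% of all genes were called, 16.8% higher and 13.3% lower. In the combination against vehicle 2 were called higher and 1 lower, beside 34.8% of all genes, 19.5% higher and 15.3% lower. In the combination against vorinostat 1 was called higher and 0 lower, beside 4.25% of all genes, 3.37% higher and 0.876% lower. In the combination against EC359 3 were called higher and 1 lower, beside 33.7% of all genes, 19.8% higher and 13.9% lower. The interaction was called for 1 member, where 2.1% of all genes were called, 1.62% positive and 0.482% negative. The members are therefore described gene by gene. The median log2 fold change of the 10 members against vehicle was -0.0025 (EC359), -0.07 (vorinostat) and 0.31 (combination), beside -0.02, 0.03 and 0.07 for all tested genes. It was 0.36 in the combination against vorinostat, 0.21 against EC359 and 0.47 for the interaction, beside -0.01, 0.06 and 0.02 for all tested genes. The median of 0.31 was 0.12 without combination replicate 2. That of -0.0025 was -0.27 without EC359 replicate 1 and 0.18 without EC359 replicate 2. The median of 0.21 was 0.42 and 0.04 in those 2 fits, and that of -0.07 was -0.28 without vehicle replicate 2.

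INHBA (chromosome 7, 41706766 to 41745432, minus strand) encodes the inhibin beta A subunit, whose dimer is activin A, a ligand that signals through SMAD2 and SMAD3. The vehicle libraries held 151 and 144 CPM of INHBA, the EC359 libraries 377 and 270.5 CPM, the vorinostat libraries 179.7 and 189 CPM, and the combination libraries 2946 and 3142 CPM. The 4 groups did not overlap, and both combination libraries stood far above all others. In bulk libraries, a change in the number of expressing cells and a change in RNA per cell cannot be told apart. In raw counts, INHBA went from 3197 and 3087 reads with vehicle to 57567 and 61520 with the combination. This moved it from rank 1537 and 1632 among all listed genes by count to rank 22 and 20, and from 0.0153% and 0.0147% of all gene counts to 0.281% and 0.303%.

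INHBA rose 20.6-fold in the combination against vehicle (log2 fold change 4.37, SE 0.16, edgeR adjusted p = 7.14e-08) and 16.5-fold against vorinostat (4.04, SE 0.15, edgeR adjusted p = 5.43e-07). Against EC359 alone it rose 9.40-fold (3.23, SE 0.15, edgeR adjusted p = 3.06e-07). EC359 alone raised it 2.19-fold (1.13, SE 0.14, edgeR adjusted p = 0.000699). With vorinostat alone the log2 fold change was 0.32 (SE 0.14, edgeR adjusted p = 0.0641) and did not pass the test. The single-drug log2 changes sum to 1.46, or 2.74-fold, beside the 20.6-fold measured. The interaction was 2.91 on the log2 scale (SE 0.20, 95% interval 2.46 to 3.36, edgeR adjusted p = 0.000123). In the combination against vorinostat, INHBA ranked 22 from the highest log2 fold change among the 13694 tested genes. Its rank was 458 in the combination against vehicle and 792 in the combination against EC359. For EC359 against vehicle it was 542, and for the interaction 151. The call for EC359 alone was lost when only the vehicle and EC359 libraries were fitted (edgeR adjusted p = 0.0189), without vehicle replicate 1 (0.0109) or without vehicle replicate 2 (0.0142). Without EC359 replicate 1 the log2 fold change was 0.88, under the fold threshold. The calls of the combination comparisons and of the interaction were kept in every alternative that was fitted.

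**Figure D1:**
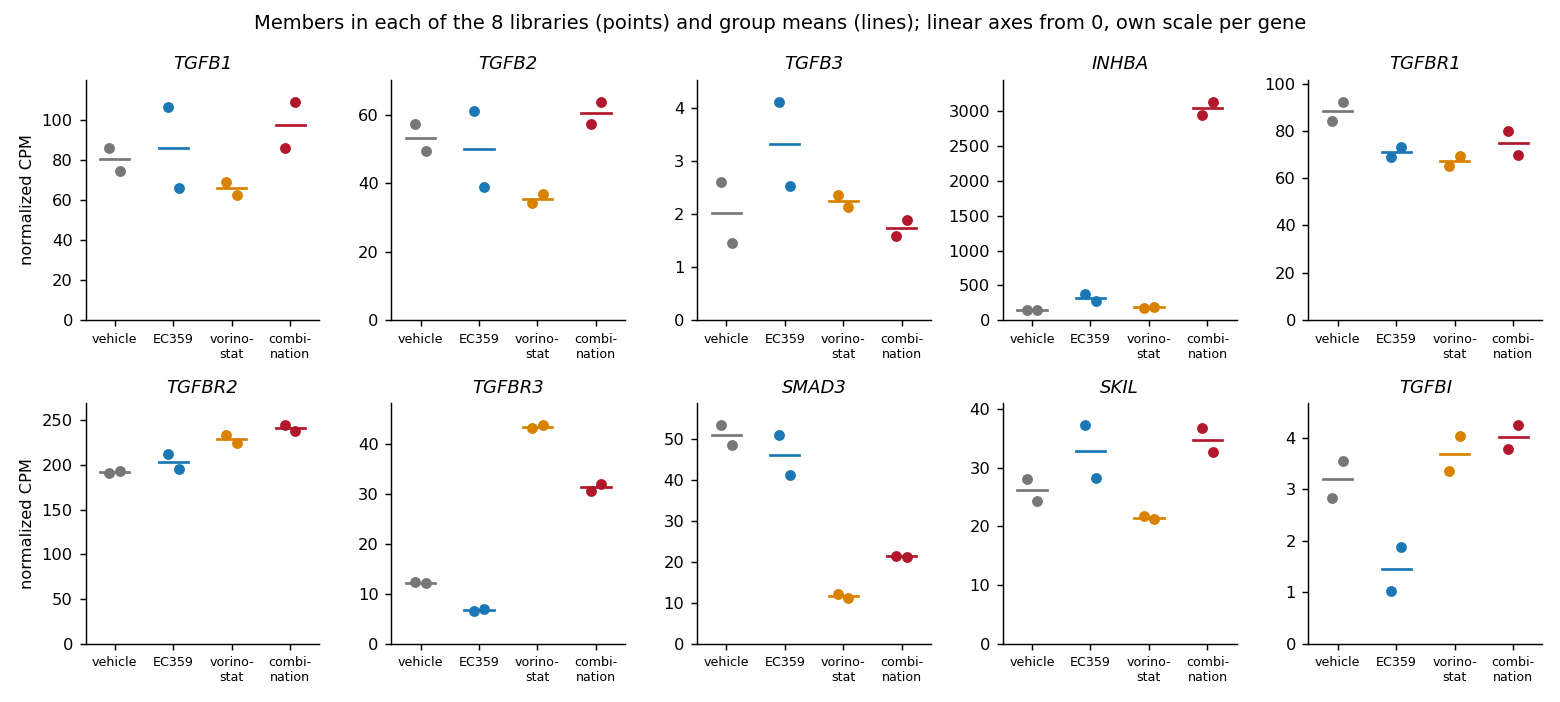
Normalized CPM of the 10 members in each library, on linear axes from 0 with a scale of its own per gene; points are the 2 libraries of a group and lines their mean. INHBA stands at 2946 and 3142 CPM in the combination and at most at 377 CPM elsewhere, SMAD3 is lowest with vorinostat, and the EC359 points of TGFB1 and TGFB2 lie far apart.

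TGFB1, the most studied TGF-beta ligand (chromosome 19, 41807492 to 41859827, minus strand), was at 85.8 and 74.5 CPM with vehicle, 106 and 65.8 CPM with EC359, 68.8 and 62.6 CPM with vorinostat, and 85.8 and 109 CPM in the combination. The EC359 pair spanned the vehicle pair. TGFB2 (chromosome 1, 218518678 to 218617961, plus strand), the isoform that needs TGFBR3 for efficient receptor binding, was at 57.3 and 49.6 CPM, 61.2 and 39.1 CPM, 34.2 and 36.8 CPM, and 57.5 and 64.0 CPM in the same order. Both combination libraries exceeded both vorinostat libraries for each of these genes, but neither was called in any comparison. The nearest was TGFB2 in the combination against vorinostat (log2 fold change 0.77, SE 0.19, edgeR adjusted p = 0.0161), where TGFB1 had 0.57 (SE 0.21, edgeR adjusted p = 0.0716). TGFB3 (chromosome 14, 76424440 to 76449354, minus strand) was rare, with between 31 and 100 reads in a library, or 1.45 to 4.12 CPM, and was not called. Of the TGFB2 exon length, 22.7% is shared with TGFB2-OT1 on the same strand and 11.6% with the antisense gene TGFB2-AS1, and whether strand was used in counting is not known, so a part of these reads could belong to those genes.

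Levels of different genes were compared after division by exon length. That length covers all exons annotated for a gene in GENCODE, whereas reads were counted on RefSeq genes. It can exceed the length of the transcripts present, so comparisons between genes are approximate. TGFB1 made up 72.5% to 77.5% of the summed per-length level of the 3 TGF-beta isoforms in the 8 libraries, TGFB2 20.8% to 26.3%, and TGFB3 0.816% to 1.82%. The order of the isoforms was thus the same in each library. The per-length level of INHBA was 0.693 and 0.763 times that of TGFB1 with vehicle, 1.40 and 1.62 times with EC359, 1.03 and 1.19 times with vorinostat, and 13.5 and 11.4 times in the combination. In vehicle the per-length order of the members was TGFBR2 (28.0 CPM per kb), TGFB1 (24.6), INHBA (17.8), TGFBR1 (11.1), TGFB2 (8.84), SMAD3 (5.08), SKIL (3.23), TGFBR3 (1.43), TGFBI (0.414) and TGFB3 (0.387), with the libraries of the last pair overlapping and no other neighbours doing so. In the combination INHBA led with 367 CPM per kb, followed by TGFBR2 with 35.2.

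The kinase receptors moved little. TGFBR1 (chromosome 9, 101866320 to 101916474, plus strand), the type I receptor, was at 84.3 and 92.4 CPM with vehicle, 68.8 and 73.0 CPM with EC359, 65.2 and 69.2 CPM with vorinostat, and 80.1 and 69.6 CPM in the combination. TGFBR2 (chromosome 3, 30648093 to 30735634, plus strand), the type II receptor, was at 191 and 193 CPM, 212 and 196 CPM, 233 and 225 CPM, and 244 and 238 CPM. The treated libraries lay below vehicle for TGFBR1 and above it for TGFBR2. The adjusted p passed 0.01 for TGFBR1 with vorinostat (log2 fold change -0.39, SE 0.11, edgeR adjusted p = 0.00923) and for TGFBR2 in the combination against vehicle (0.33, SE 0.08, edgeR adjusted p = 0.00649), but neither change reached the fold threshold. Per length, TGFBR2 stood 2.65 and 2.44 times above TGFBR1 with vehicle and 3.56 and 3.99 times in the combination.

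TGFBR3 (chromosome 1, 92145900 to 92371892, minus strand) encodes betaglycan, a co-receptor without a kinase that presents TGF-beta ligands and also binds inhibin. It was at 12.3 and 12.2 CPM with vehicle, 6.56 and 7.0 CPM with EC359, 43.2 and 43.8 CPM with vorinostat, and 30.7 and 32.1 CPM in the combination. No groups overlapped, and EC359 was the lowest and vorinostat the highest. TGFBR3 rose 3.55-fold with vorinostat (log2 fold change 1.83, SE 0.12, edgeR adjusted p = 1.99e-06), 2.56-fold in the combination against vehicle (1.36, SE 0.12, edgeR adjusted p = 8.27e-06) and 4.63-fold in the combination against EC359 (2.21, SE 0.12, edgeR adjusted p = 7.31e-07). With EC359 alone its log2 fold change was -0.86 (SE 0.12, edgeR adjusted p = 0.00183), short of the fold threshold, and in the combination against vorinostat it was -0.47 (SE 0.11, edgeR adjusted p = 0.0137). The interaction was 0.39 (SE 0.17, 95% interval 0.01 to 0.76, edgeR adjusted p = 0.213), so a difference between the EC359 effects with and without vorinostat was not shown. Its calls were kept in each of the 12 alternatives of each of the 3 comparisons.

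SMAD3 (chromosome 15, 67356101 to 67487511, plus strand), a transducer of both TGF-beta and activin signals, was at 53.3 and 48.4 CPM with vehicle, 50.9 and 41.2 CPM with EC359, 12.1 and 11.2 CPM with vorinostat, and 21.5 and 21.3 CPM in the combination. The vorinostat libraries were the lowest, and the combination lay between vorinostat and the other groups. SMAD3 was 4.37-fold lower with vorinostat (log2 fold change -2.13, SE 0.14, edgeR adjusted p = 2.16e-06) and 2.38-fold lower in the combination (-1.25, SE 0.13, edgeR adjusted p = 3.27e-05) than with vehicle. The combination was 2.15-fold below EC359 alone (-1.11, SE 0.13, edgeR adjusted p = 7.44e-05), which fell to -0.96 without EC359 replicate 1, under the fold threshold. Against vorinostat the combination had a log2 fold change of 0.88 (SE 0.14, edgeR adjusted p = 0.00220), also under that threshold. The interaction of 1.02 (SE 0.19, edgeR adjusted p = 0.0156) was not called. It was called in 5 of 15 alternatives, among them DESeq2 (adjusted p = 0.00137), the fit without EC359 replicate 1 (edgeR, 0.000321) and the fit without EC359 replicate 2 (edgeR, 0.00219).

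**Figure D2:**
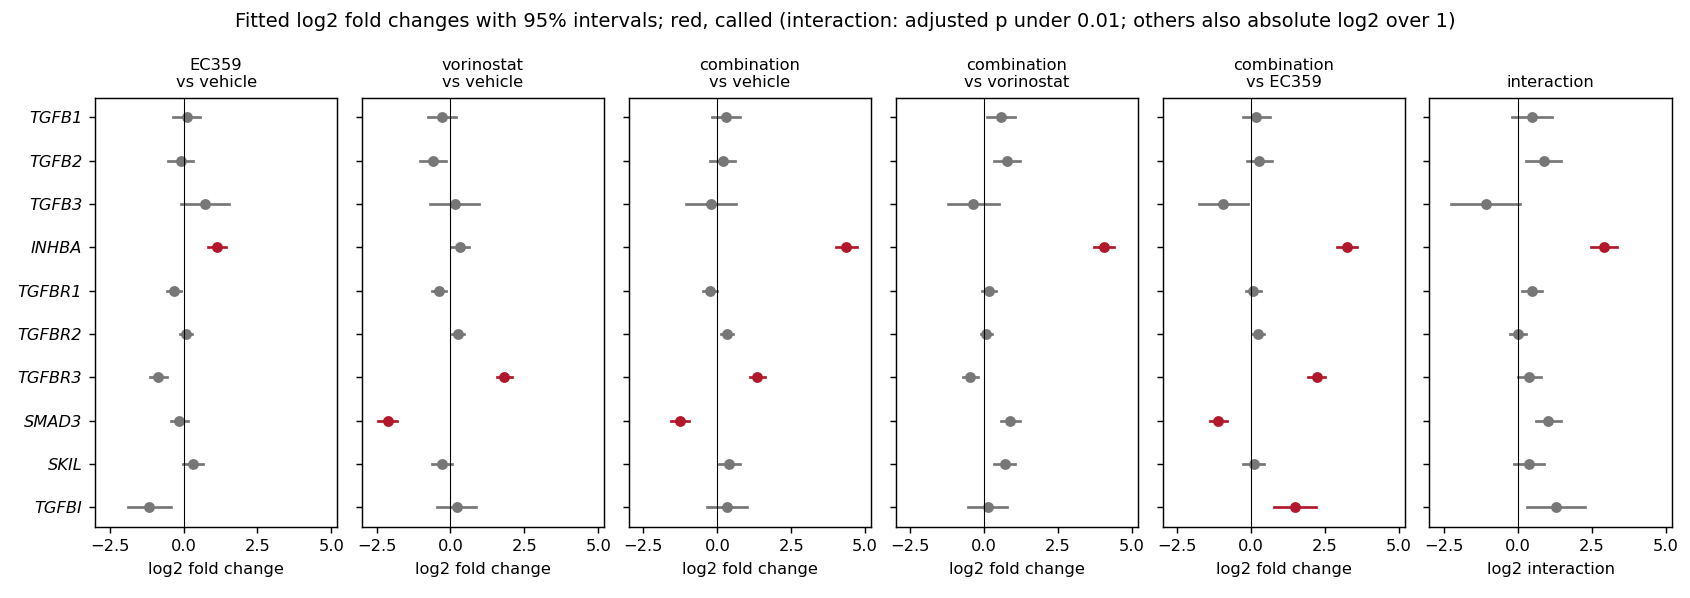
Fitted log2 fold change of each member in 5 comparisons, and the log2 interaction, with 95% intervals from the edgeR fit as bars; red marks called members. INHBA is red in all panels except vorinostat against vehicle, and SMAD3 is at -2.13 with vorinostat and at -1.25 with the combination.

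SKIL (chromosome 3, 170075130 to 170114623, plus strand) encodes SnoN, a SMAD repressor that is itself induced by TGF-beta. It was at 28.1 and 24.3 CPM with vehicle, 37.2 and 28.3 CPM with EC359, 21.7 and 21.3 CPM with vorinostat, and 36.8 and 32.6 CPM in the combination. The combination libraries were above the vorinostat and vehicle libraries, but no comparison was called, and the combination against vorinostat gave a log2 fold change of 0.69 (SE 0.16, edgeR adjusted p = 0.0112). TGFBI (chromosome 5, 135364677 to 135399507, plus strand), a secreted matrix protein named for its induction by TGF-beta, had 60 and 76 reads with vehicle, 25 and 37 with EC359, 65 and 95 with vorinostat, and 74 and 83 in the combination. Both EC359 libraries were lowest, and the vorinostat pair overlapped both the vehicle and the combination pair. TGFBI was 2.79-fold higher in the combination than with EC359 (log2 fold change 1.48, SE 0.32, edgeR adjusted p = 0.00262), and the fold change against vehicle was -1.15 on the log2 scale with EC359 (SE 0.32, edgeR adjusted p = 0.0402) and 0.33 in the combination (SE 0.29, edgeR adjusted p = 0.341). The call against EC359 was lost in the fit of those 4 libraries alone (edgeR adjusted p = 0.0171), without EC359 replicate 1 (0.010), without combination replicate 1 (0.013) and without combination replicate 2 (0.0221). TGFBI was called lower with EC359 than with vehicle in the fit without EC359 replicate 2 (log2 fold change -1.61). With all libraries it was called lower only when the threshold was relaxed to an adjusted p under 0.05.

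The other genes of the pathway were taken from a list of 65, of which 54 were tested. The list was drawn up with earlier results of these data known. Its counts are therefore a description and cannot test whether the pathway was affected more than other genes. Of these 54, 7 rose and 9 fell with EC359, where 3.67% of all tested genes were called. With vorinostat 12 rose and 14 fell (30.1% of all genes called), and with the combination 12 rose and 12 fell (34.8%). Adding EC359 to vorinostat raised 8 and lowered 1 (4.25% of all genes, 3.37% higher and 0.876% lower). In the combination against EC359, 13 rose and 9 fell (33.7%). The median log2 fold change of the list was -0.14, -0.17, -0.08, 0.06 and 0.08 in these 5 comparisons, beside -0.02, 0.03, 0.07, -0.01 and 0.06 for all tested genes. A positive interaction need not be a rise against vehicle. MSTN, EDN1, TPM1, SMAD6 and THBS1 had positive interactions, but log2 fold changes in the combination against vehicle of -3.14, -2.99, -2.45, -2.35 and -0.66. Those of SNAI1, PMEPA1, CTGF and FN1, with positive interactions too, were 4.62, 2.56, 2.48 and 0.78. The interaction was called for 11, 9 of them positive, where 2.1% of all genes were called, 1.62% positive and 0.482% negative. That last count rests on the full set of libraries: it was 2 or 3 without any 1 vehicle, vorinostat or combination library, and 19 or 16 without EC359 replicate 1 or 2. The EC359 count of 16 was 10 without vehicle replicate 2.

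The partners and antagonists of INHBA were read first. INHBB and INHA, whose products pair with the beta A subunit to form activin AB and inhibin A, had at most 4 and 9 reads in a library and were not tested. FST encodes follistatin, which binds and neutralizes activin. It was at 10.6 and 9.48 CPM with vehicle, 33.6 and 32.4 CPM with EC359, 4.47 and 4.12 CPM with vorinostat, and 5.07 and 4.24 CPM in the combination. FST rose 3.29-fold with EC359 alone (log2 fold change 1.72, SE 0.15, edgeR adjusted p = 8.45e-05), fell 2.33-fold with vorinostat (-1.22, SE 0.16, edgeR adjusted p = 0.000136), and had a negative interaction of -1.60 (SE 0.22, edgeR adjusted p = 0.00416). FSTL3, a related activin antagonist, was at 87.8 and 86.0 CPM with vehicle and 35.6 and 38.7 CPM in the combination, 2.34-fold lower (log2 fold change -1.23, SE 0.11, edgeR adjusted p = 8.86e-06). FSTL3 was also lower with EC359 alone (-0.81, SE 0.11, edgeR adjusted p = 0.000943) and vorinostat alone (-0.45, SE 0.10, edgeR adjusted p = 0.00445), both under the fold threshold. Its interaction of 0.03 (SE 0.15, edgeR adjusted p = 0.929) was not called. The per-length ratio of INHBA to FST was 4.74 and 5.05 with vehicle, 3.72 and 2.78 with EC359, 13.3 and 15.3 with vorinostat, and 193 and 246 in the combination. INHBA rose and FST fell in the combination against vehicle (FST log2 fold change -1.11, SE 0.16, edgeR adjusted p = 0.000218), whereas both rose with EC359 alone. The interaction of FST lost its call without any 1 vehicle, vorinostat or combination library.

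Among the receptors, ACVR2A, a type II receptor for activin, was at 5.24 and 5.65 CPM with vehicle and 13.7 and 11.6 CPM in the combination, a 2.32-fold rise (log2 fold change 1.21, SE 0.18, edgeR adjusted p = 0.000306). With vorinostat alone ACVR2A was at 8.28 and 9.14 CPM (log2 fold change 0.68, SE 0.19, edgeR adjusted p = 0.00999), under the fold threshold. Its log2 fold change with EC359 alone was -0.17 (SE 0.19, edgeR adjusted p = 0.593). Neither the combination against vorinostat (0.53, SE 0.18, edgeR adjusted p = 0.0512) nor the interaction (0.70, SE 0.26, edgeR adjusted p = 0.155) was called for ACVR2A. ACVR2B, the other type II activin receptor gene, fell with vorinostat (log2 fold change -1.61, SE 0.27, edgeR adjusted p = 0.000661) and was lower in the combination than with EC359 (-1.48, SE 0.26, edgeR adjusted p = 0.000755). Its log2 fold change in the combination against vehicle was -0.98 (SE 0.26, edgeR adjusted p = 0.00798), under the fold threshold. SMAD2 and SMAD4, the partners of SMAD3, had log2 fold changes of -0.54 (SE 0.12, edgeR adjusted p = 0.00307) and -0.78 (SE 0.10, edgeR adjusted p = 0.000118) with vorinostat, both under the fold threshold. MSTN, encoding the related ligand myostatin, fell with EC359 alone from 234 and 201 reads to 18 and 20 (log2 fold change -3.55, SE 0.31, edgeR adjusted p = 9.34e-05) and with vorinostat to 44 and 41 (-2.36, SE 0.28, edgeR adjusted p = 6.93e-05). The combination libraries held 28 and 17 reads of MSTN. Its interaction was 2.76 (SE 0.46, edgeR adjusted p = 0.00961), close to the threshold.

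Some latency genes rose with EC359 alone. LTBP1, which encodes a protein that holds latent TGF-beta in the matrix, had a log2 fold change of 1.12 (SE 0.10, edgeR adjusted p = 0.000115). LTBP2, listed with it by gene family and not for binding TGF-beta, had 1.88 (SE 0.33, edgeR adjusted p = 0.00481). LRRC33, whose product tethers latent TGF-beta on cells, had 27 and 25 reads with vehicle and 180 and 107 with EC359 (log2 fold change 2.39, SE 0.31, edgeR adjusted p = 0.00105). Of the 10 tested genes listed under latency and activation, LTBP2 among them, 3 were called higher and 0 lower, beside 1.94% and 1.72% of all genes. Their median log2 fold change was -0.10. LRRC32, LTBP4 and ITGAV had -1.41, -0.42 and -0.27 (edgeR adjusted p = 0.0636, 0.0556 and 0.0901) and were not called. ITGB6 and FURIN had 1.01 and 0.07 (edgeR adjusted p = 0.372 and 0.752) and were not called either. THBS1 (log2 fold change -0.70, edgeR adjusted p = 0.000356) and LTBP3 (-0.46, edgeR adjusted p = 0.00931) passed the adjusted p but were under the fold threshold. The LTBP2 call was lost without either vehicle library and in the 4-library fit, and the LRRC33 call without either vehicle library. LTBP2 also rose when EC359 was added to vorinostat (1.86, SE 0.33, edgeR adjusted p = 0.00403), a call lost without vorinostat replicate 2 or without either combination library. THBS1, encoding an activator of latent TGF-beta, was at 2665 and 2644 CPM with vehicle, 1611 and 1653 CPM with EC359, 1242 and 1365 CPM with vorinostat, and 1719 and 1640 CPM in the combination, with an interaction of 1.07 (SE 0.11, edgeR adjusted p = 0.000834).

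Among the negative regulators, PMEPA1, a target and feedback inhibitor of TGF-beta signaling, was at 20.2 and 23.7 CPM with vehicle, 29.0 and 23.2 CPM with EC359, 46.3 and 42.1 CPM with vorinostat, and 128 and 131 CPM in the combination. It rose 2.93-fold when EC359 was added to vorinostat (log2 fold change 1.55, SE 0.13, edgeR adjusted p = 7.55e-05), with an interaction of 1.30 (SE 0.19, edgeR adjusted p = 0.00503). SMURF2, a ubiquitin ligase of the receptors and SMADs, rose in the same comparison (1.07, SE 0.15, edgeR adjusted p = 0.00106), but its call was lost under total-count normalization and without any 1 of those 4 libraries. SMAD7, the classic inhibitory SMAD induced by TGF-beta, was not called, at 18.1 and 20.4 CPM with vehicle and 15.7 and 19.2 CPM in the combination. With EC359 alone the SMAD corepressor gene TGIF1 rose (1.20, SE 0.10, edgeR adjusted p = 9.55e-05). SMAD6, which mainly inhibits the BMP branch, and BAMBI, a decoy receptor, fell with EC359 (-1.88, SE 0.13, edgeR adjusted p = 2.07e-05 and -1.54, SE 0.14, edgeR adjusted p = 0.000138). SMAD6 had an interaction of 1.12 (SE 0.18, edgeR adjusted p = 0.00838).

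The other target genes divided. CTGF, encoding a matricellular growth factor, was at 328 and 307 CPM with vehicle, 219.7 and 202 CPM with EC359, 826 and 796 CPM with vorinostat, and 1750 and 1801 CPM in the combination. FN1, encoding fibronectin, was at 2831 and 2396 CPM, 2708 and 2153 CPM, 1879 and 2039 CPM, and 4384 and 4588 CPM in the same order. Both were highest in the combination without overlap. Adding EC359 to vorinostat raised FN1 2.29-fold (log2 fold change 1.20, SE 0.12, edgeR adjusted p = 0.000225) and CTGF 2.19-fold (1.13, SE 0.08, edgeR adjusted p = 2.86e-05). The interaction was called for CTGF (1.72, SE 0.12, edgeR adjusted p = 0.000123) and FN1 (1.30, SE 0.17, edgeR adjusted p = 0.00327).

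**Figure D3:**
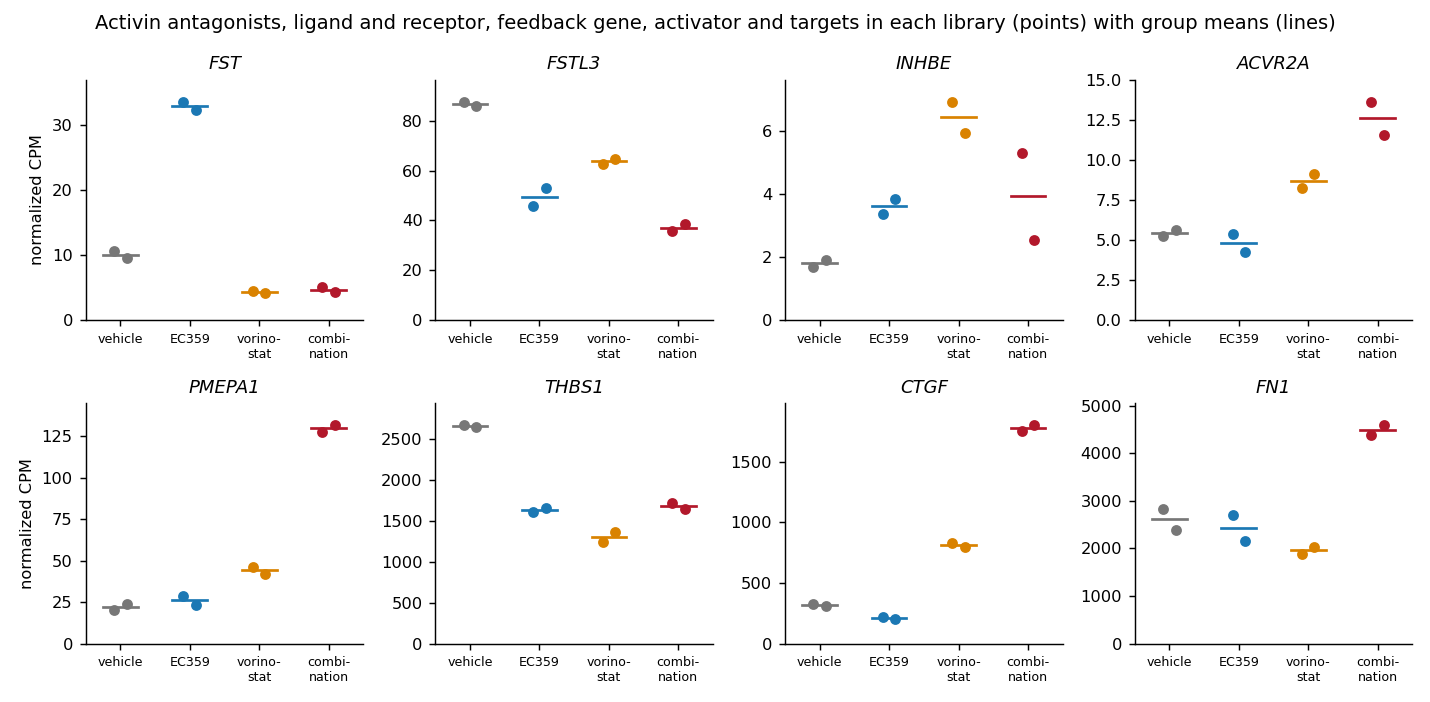
Normalized CPM of activin antagonists (FST, FSTL3), a ligand subunit (INHBE), an activin receptor (ACVR2A), a feedback gene (PMEPA1), an activator of latent TGF-beta (THBS1) and target genes (CTGF, FN1) in each library, on linear axes from 0; points are libraries and lines group means. FST peaks with EC359 alone at 33.6 and 32.4 CPM, while PMEPA1, CTGF and FN1 are highest in the combination.

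Adding EC359 to vorinostat also raised the transcription factor genes BHLHE40 (log2 fold change 1.20, SE 0.12, edgeR adjusted p = 0.000202) and HMGA2 (1.52, SE 0.21, edgeR adjusted p = 0.00113), the latter lost without any 1 of those 4 libraries. It lowered the collagen gene COL1A2 (-1.16, SE 0.11, edgeR adjusted p = 0.000123). With EC359 alone COL1A1 and COL1A2 had log2 fold changes of -1.07 (SE 0.07, edgeR adjusted p = 2.35e-05) and -1.01 (SE 0.11, edgeR adjusted p = 0.000287), TPM1, a tropomyosin gene, -1.21 (SE 0.09, edgeR adjusted p = 4.50e-05), and EDN1, encoding endothelin-1, -1.36 (SE 0.13, edgeR adjusted p = 0.000152). SNAI1, encoding a repressor of E-cadherin, had -1.70 (SE 0.24, edgeR adjusted p = 0.00139) and the CDK inhibitor gene CDKN2B -1.01 (SE 0.12, edgeR adjusted p = 0.000718). Against vehicle, CDKN2B rose with vorinostat (2.48, SE 0.13, edgeR adjusted p = 6.20e-07) and in the combination (1.97, SE 0.12, edgeR adjusted p = 1.25e-06). In the combination against vorinostat it had -0.51 (SE 0.12, edgeR adjusted p = 0.0127) and was not called. HMGA2 and ADAM19, encoding a metalloprotease, rose with EC359 alone, with 1.51 (SE 0.18, edgeR adjusted p = 0.000617) and 2.39 (SE 0.11, edgeR adjusted p = 3.00e-06). COL1A1 had a log2 fold change of -0.98 when EC359 was added to vorinostat (SE 0.07, edgeR adjusted p = 3.25e-05), under the fold threshold. The interactions of COL1A1 (0.088), COL1A2 (-0.15) and HMGA2 (0.019) were not called (edgeR adjusted p = 0.682, 0.624 and 0.982). The COL1A2, CDKN2B, SNAI1 and HMGA2 calls with EC359 alone were each lost without vehicle replicate 2 and in the 4-library fit. Those of CDKN2B and SNAI1 were also lost without vehicle replicate 1, and that of COL1A2 without EC359 replicate 1. With no filter on low counts, the COL1A2 and CDKN2B calls were lost. The CDKN2B call was also lost without EC359 replicate 2, with RLE in place of TMM scaling and in DESeq2.

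EDN1 (1.93, SE 0.19, edgeR adjusted p = 0.000834), SNAI1 (1.88, SE 0.27, edgeR adjusted p = 0.00501) and TPM1 (0.82, SE 0.13, edgeR adjusted p = 0.00716) had positive interactions and ADAM19 a negative one (-2.65, SE 0.15, edgeR adjusted p = 6.97e-05). Of the 11 genes of the list with a called interaction, CTGF and ADAM19 kept the call in all 15 alternatives, and the other 9 lost it without vehicle replicate 1 and without either combination library. Vorinostat alone also moved several genes of the list, SNAI1 and HMGA2 in the direction opposite to that with EC359 alone. The largest rise was that of SNAI1, 21.7-fold (log2 fold change 4.44, SE 0.17, edgeR adjusted p = 2.16e-07). Among the largest was also IL11, with 1 read in each vehicle library and 12 and 8 with vorinostat, too few for a fold change to be given. The largest falls were those of EDN1, 11.8-fold (-3.56, SE 0.14, edgeR adjusted p = 2.47e-07), MSTN, given above, and HMGA2, 4.29-fold (-2.10, SE 0.21, edgeR adjusted p = 2.38e-05).

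**Figure D4:**
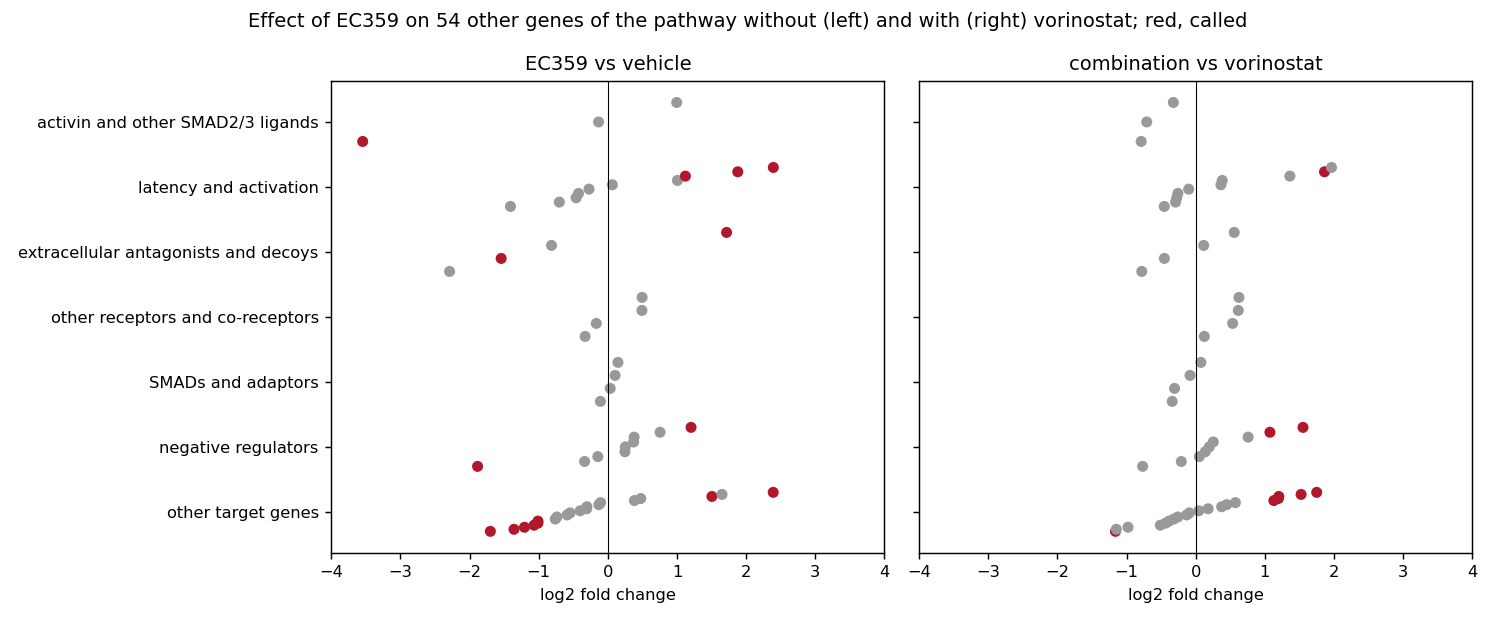
Log2 fold changes of the 54 other pathway genes by role, for EC359 against vehicle (left) and for the combination against vorinostat (right); each point is a gene and red marks called genes. On the left 7 genes rose and 9 fell, and on the right 8 rose and 1 fell.

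Genes with the pattern nearest to each ligand over the 8 libraries were found by the root mean square difference of centred log2 CPM, among 9975 or 9976 tested genes with an average log2 CPM of at least 3. The 3 nearest to TGFB1 were FXC1 (0.0965), ZNF182 (0.101) and ZNF828 (0.104), those to TGFB2 were PJA1 (0.0904), PHACTR4 (0.0913) and DCAF4 (0.110), and those to TGFB3 were MAP2K5 (0.175), SCG2 (0.212) and FNDC3B (0.214). INHBA was added after its values were seen, and its nearest genes were the cytokine gene IL6 (0.328), the pseudokinase gene TRIB1 (0.419) and SBSN (0.424). The 8 libraries fall into 4 groups, so these values describe shared group means and library depth as well as the genes themselves.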

How the data were processed

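Total RNA from BT-549 cells was sequenced by the authors as 50 bp single-end reads, aligned to hg19 with TopHat2 (2.0.8b in the submitters' processing notes) and counted on RefSeq genes with HTSeq. They deposited raw counts per gene symbol, 1 list per library. The HTSeq summary lines were left out of library sizes. Reads outside genes made up 11.0% to 14.2% of all reads on genes, outside genes or ambiguous between genes. The strand setting is not given in the sources used here, and nothing says that the 2 libraries of a group came from separate cultures, so p-values measure the spread between libraries, which may be technical.

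Genes were kept by filterByExpr, scaled by TMM and fitted with 1 mean per group in edgeR 4.0.16 (R 4.3.3). The interaction is the EC359 effect with vorinostat minus that without it. The members and the pathway list were chosen with earlier results of these data known. The text names all members, and other pathway genes called with EC359, in the combination against vorinostat or in the interaction, and the 3 largest vorinostat changes in each direction, of which 1 gene is not reported here. FSTL3, ACVR2A, ACVR2B, LTBP3, LTBP4, LRRC32, ITGAV, ITGB6, FURIN, SMAD2, SMAD4, SMAD7, INHA and INHBB were named after their values were seen. Coordinates and exon lengths came from GENCODE on GRCh37. The replicate number, the only pairing in the labels, was fitted as an alternative, with DESeq2 1.42.0, other normalizations, filters and thresholds, 4-library fits and single libraries left out. Other experiments of the study were not used here.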

Additional observations from a re-analysis of the deposited data

Results flagged for a closer look

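The EC359 effect on INHBA differed between cells with and without vorinostat, with an interaction of 2.91 on the log2 scale (SE 0.20, edgeR adjusted p = 0.000123). It ranged from 2.68 to 3.17 over 15 alternatives and was called in each.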

How the results depend on the processing

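Over 750 values of single members under alternatives, 716 kept direction and side of the threshold, 16 reversed, 9 lost and 9 gained a call. INHBA was called in the combination comparisons and the interaction throughout. Counts of called members moved as follows. For EC359 against vehicle the count of 1 became 0 with only the libraries compared, and 2 with no fold threshold or an adjusted p under 0.05. Without single libraries it ranged from 0 to 2. For the combination against vorinostat it became 2 with no fold threshold, and for the combination against EC359 it ranged from 2 to 5 without single libraries. For the interaction it became 2 with DESeq2, with no filter on low counts and with an adjusted p under 0.05, and ranged from 1 to 4 without single libraries. The count of other pathway genes ranged from 10 to 16 for EC359 against vehicle and from 2 to 19 for the interaction without single libraries. The cause was not tested. Without single libraries, uncalled log2 values that crossed 0 ranged, for EC359 against vehicle, from -0.28 to 0.42 (TGFB1), -0.45 to 0.21 (TGFB2) and -0.30 to 0.011 (SMAD3). For TGFB3 they ranged from -0.22 to 0.62 with vorinostat and -0.59 to 0.25 with the combination against vehicle, and for TGFBI from -0.052 to 0.23 in the combination against vorinostat. In the combination against EC359 they ranged from -0.14 to 0.55 (TGFB1), -0.029 to 0.62 (TGFB2), -0.091 to 0.11 (TGFBR1) and -0.12 to 0.28 (SKIL). The TGFBR2 interaction ranged from -0.091 to 0.046, and TGFBR2 in the combination against vorinostat was -0.014 with total-count normalization. Depth limits TGFB3 and TGFBI, each with at most 100 reads in a library.

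Whether the replicate numbers pair the samples cannot be settled with 2 libraries per group. The correlations of deviations were 0.23 for vehicle and EC359, 0.07 for vehicle and vorinostat, and -0.01 for EC359 and vorinostat. For the combination they were -0.10 with vehicle, -0.17 with EC359 and -0.11 with vorinostat. With the replicate block the member counts were unchanged in each comparison, and the interaction was called for 6 other pathway genes instead of 11. With a replicate block that exchanged the combination libraries' numbers, added after seeing the data, the interaction was called for 2 members instead of 1.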
